A study of Mus musculus with 18 samples.

Results

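The genes of prostaglandin and leukotriene synthesis were followed in macrophages given LPS with or without the kinase inhibitor defactinib. The set held 10 genes, listed by name for their place in the pathway: Pla2g4a, Ptgs1, Ptgs2, Ptges, Alox5, Alox5ap, Ltc4s, Alox15 and the receptor genes Ptger2 and Ptger4. Each matched 1 of the 50600 Ensembl genes in the count table, and all 10 passed the filter on low counts, which left 15663 genes for testing. RNA-seq was done on bone marrow-derived macrophages (BMDMs), cells grown from mouse marrow here for 8 days in GM-CSF, a cytokine that drives myeloid growth. The cells came from wild-type (WT) mice or from mice without a working gene for IRF5, a transcription factor of inflammatory macrophages (IRF5 KO). In each genotype 3 libraries were unstimulated (0 h of LPS), 3 had DMSO, the solvent, and then LPS, and 3 had defactinib and then LPS, so that the 18 libraries fell into 6 groups of 3. DMSO or 3.5 µM defactinib, an inhibitor of the related kinases PYK2 and FAK, was added 1 h before LPS, the bacterial lipopolysaccharide that signals through TLR4, which was given at 100 ng/ml for 2 h. The labels give DMSO for the unstimulated groups and the table's column names call them untreated, so whether these cells had the solvent is not known, and no unstimulated cells had defactinib. The sources used here do not say which libraries came from separate mice, so the p-values measure the spread between these libraries. The allele of the knockout and the age and sex of the mice of these cells are not given in the labels.

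As background, cytosolic phospholipase A2 frees arachidonic acid from membranes. The cyclooxygenases COX-1 (Ptgs1), present in resting cells, and COX-2 (Ptgs2), made in response to inflammatory signals, turn it into prostaglandin H2, from which prostaglandin E synthase makes PGE2. PGE2 acts on macrophages mainly through the cAMP-raising receptors EP2 (Ptger2) and EP4 (Ptger4). In the other branch 5-lipoxygenase, with its helper protein FLAP, makes leukotriene A4, and leukotriene C4 synthase turns this into the first of the cysteinyl leukotrienes.

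Between 39282181 and 61949143 read pairs were counted on genes per library. Levels are given in CPM, the counts of a gene scaled to the total of its library after correction by its TMM normalization factor (0.839 to 1.23). The first check was the targeted gene: Irf5 was at 587 to 650.3 CPM in WT unstimulated cells and at 335 to 397 CPM in IRF5 KO unstimulated cells. It was at 434 to 475 CPM in WT and 345 to 435 CPM in IRF5 KO after LPS with DMSO. After LPS with defactinib it was at 213 to 379 CPM in WT and 353 to 392 CPM in IRF5 KO. IRF5 KO was lower than WT by 0.75 ± 0.16 on the log2 scale (SE, adjusted p = 0.00492) in unstimulated cells, differed by -0.16 ± 0.16 (SE, adjusted p = 0.428) with DMSO, and with defactinib stood above it by 0.42 ± 0.16 (SE, adjusted p = 0.0545). The counts are summed over all exons and the deleted part is not given in the labels, so that the level of Irf5 does not check the genotype of these libraries, which are named here by their labels. The marker genes of macrophages were all present, with summed levels of 18205 to 19152 CPM in IRF5 KO LPS defactinib and 9740 to 15126 CPM in the other groups, and those of T, B and NK cells summed to at most 1.02 CPM. Replicate 3 of IRF5 KO LPS DMSO stood apart from replicates 1 and 2 of its group. Across genes its log2 CPM was closest to the IRF5 KO unstimulated libraries (Pearson's r of 0.978 to 0.979), whereas replicates 1 and 2 were closer to IRF5 KO LPS defactinib (r of 0.985 to 0.987) than to replicate 3 (r of 0.932). The gene Gm26917 was at 26817 and 26679 CPM in replicates 1 and 2 and at 11392 to 41939 CPM in the defactinib groups. In replicate 3 it was at 113 CPM, close to the 47.0 to 143 CPM of the unstimulated groups and WT LPS DMSO. Whether the labels of these 3 libraries hold was not tested. Fold changes printed in the text for the 10 genes that rest on this group are therefore given with and without replicate 3. Where replicate 3 alone stands for the group, its 1 library has no spread of its own and is assumed to vary like the other groups, so that the p-value rests on their spread. Fewer expressing cells and less RNA per cell cannot be told apart in these bulk samples.

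The promoters of the 4 genes called with LPS in WT are shown: Ptgs2, Ptges and Ptger4, which rose with LPS in both genotypes, and Ptgs1, which fell in WT. Of the 10 genes 8 had an entry in the RefSeq promoter sequences (GRCm38.p6, the coordinates of mm10), and Alox5ap and Alox15 had none. The 250 bases before the start site are printed 5′ to 3′ on the gene's strand. Capitals mark the letters TTNCNNAA of the C/EBP motif on either strand.
Ptgs2, chr1:150099781-150100030, + strand: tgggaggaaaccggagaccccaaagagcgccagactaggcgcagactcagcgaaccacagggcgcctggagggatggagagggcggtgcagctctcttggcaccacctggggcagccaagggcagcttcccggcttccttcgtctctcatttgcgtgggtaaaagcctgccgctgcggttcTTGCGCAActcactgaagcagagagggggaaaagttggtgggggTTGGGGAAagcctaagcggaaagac
Ptges, chr2:30903298-30903547, - strand: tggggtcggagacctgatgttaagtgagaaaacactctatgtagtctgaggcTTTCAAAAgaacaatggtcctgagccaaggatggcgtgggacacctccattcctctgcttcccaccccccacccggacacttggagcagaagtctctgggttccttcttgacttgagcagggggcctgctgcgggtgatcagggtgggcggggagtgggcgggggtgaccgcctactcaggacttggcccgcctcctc
Ptger4, chr15:5244188-5244437, - strand: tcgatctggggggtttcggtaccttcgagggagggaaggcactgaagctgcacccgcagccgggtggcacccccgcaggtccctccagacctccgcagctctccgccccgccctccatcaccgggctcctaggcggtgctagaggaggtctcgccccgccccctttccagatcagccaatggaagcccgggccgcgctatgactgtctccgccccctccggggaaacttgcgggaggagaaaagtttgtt
Ptgs1, chr2:36230176-36230425, + strand: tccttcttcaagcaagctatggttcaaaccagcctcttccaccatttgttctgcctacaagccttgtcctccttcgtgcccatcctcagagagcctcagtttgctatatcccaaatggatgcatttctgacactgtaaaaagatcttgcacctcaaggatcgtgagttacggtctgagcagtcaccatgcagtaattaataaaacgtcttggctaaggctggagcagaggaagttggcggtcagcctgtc
Ptgs2 held a palindromic match at 69 to 62 bases before the start (TTGCGCAA), counted once although it reads on both strands, and another at 25 to 18 bases. Ptges held 1 match at 198 to 191 bases, and Ptger4 and Ptgs1 held none. The motif was in 36.8% of 32851 promoters of this length, so that a match is common. The CRE core CGTCA (17.8% of promoters), the E-box CACGTG (6.02%), the AP-1 letters TGANTCA (6.75%), the ISRE motif (2.98%), the TATA letters TATAAA (12.4%) and the NF-kB motif (3.90%) were searched on both strands in the same windows, and none was found in these 4. No match says only that these letters are not in these windows. Among the genes with an entry that is not printed, Pla2g4a and Ptger2 also held C/EBP matches, and neither was called with LPS in WT. Alox5 and Ltc4s held none. The RefSeq start of Ptges lies inside the Ensembl gene, which reaches further upstream. The GC content was 61.6% in Ptgs2, 59.6% in Ptges, 66.8% in Ptger4 and 48.0% in Ptgs1.

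Set on a scale that allows for gene length (RPKM, CPM divided by the gene's exon length in kilobases), Alox5ap was high in every library, at 109.9 to 210.4 RPKM. Ptgs2 covered the widest range, from 0.210 to 212 RPKM. Ptgs1 followed at 19.9 to 101 RPKM, Ptger4 at 4.20 to 59.7, Ltc4s at 9.61 to 41.0 and Alox5 at 6.76 to 27.9 RPKM. Pla2g4a stayed between 3.63 and 5.95 RPKM and Ptges between 0.953 and 4.46 RPKM. The least abundant were Alox15 (0.450 to 2.33 RPKM) and Ptger2 (0.0784 to 1.54 RPKM).

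**Figure D1:**
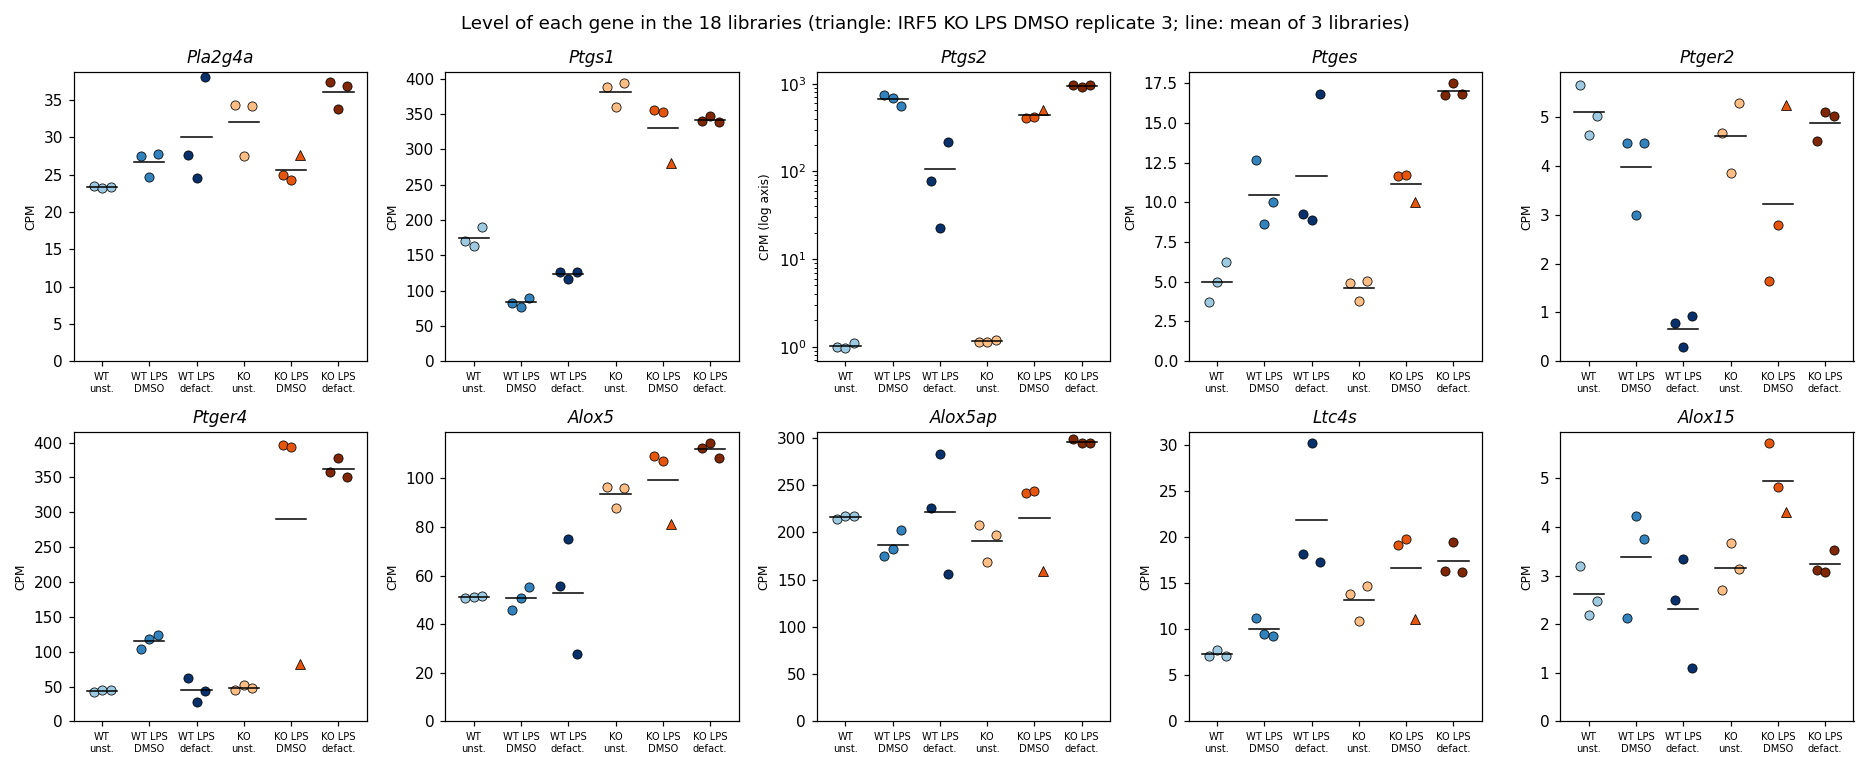
Level of each of the 10 genes in CPM (vertical axis, from 0 except for Ptgs2, which has a log axis) in the 18 libraries, by group, with a line at the mean of 3 libraries and a triangle for IRF5 KO LPS DMSO replicate 3. Ptgs2 is near 1 CPM in both unstimulated groups and at 557 to 752 CPM in WT LPS DMSO, and Ptger4 in IRF5 KO LPS DMSO is at 397 and 393 CPM in replicates 1 and 2 and at 81.8 CPM in replicate 3.

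A gene was called when its false discovery rate in edgeR's quasi-likelihood test was below 0.05 and its log2 fold change beyond 1. LPS called 4 of the 10 genes in WT: Ptgs2, Ptger4 and Ptges rose and Ptgs1 fell, where 21.3% of all tested genes were called. In IRF5 KO the same 3 genes rose (13.3% of all genes called). Without replicate 3 of IRF5 KO LPS DMSO they were joined by Ptger2, which fell (26.2% of all genes called). The median log2 fold change of the 10 genes with all libraries was 0.28 in WT and 0.25 in IRF5 KO, beside -0.0045 and 0.0063 over all tested genes. These medians were not computed without replicate 3 of IRF5 KO LPS DMSO.

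The study asked whether inhibition of PYK2, which it puts upstream of IRF5, changes the response to LPS, and IRF5 KO cells let the inhibitor be compared with and without IRF5. Defactinib before LPS called 4 of the 10 genes in WT: Ptgs2, Ptger2 and Ptger4 fell and Ltc4s rose (29.1% of all genes called). The mitochondrial share of counts moved with this comparison, from 0.671 to 0.913% in WT LPS DMSO to 1.05 to 1.26% in WT LPS defactinib, as did Gm26917, which took 0.0112 to 0.0122% and 2.18 to 4.15% of counts. The mitochondrial share was 0.514 to 0.797% in IRF5 KO LPS DMSO and 0.835 to 0.926% in IRF5 KO LPS defactinib. The part of either in the values was not tested. In IRF5 KO it called 0 of the 10 by edgeR's quasi-likelihood test, with 4 at an unadjusted p below 0.05 (23.3% of all genes), where 0.919% of all genes were called. DESeq2 and limma-voom also called 0. Without replicate 3 of IRF5 KO LPS DMSO, 1 was called, Ptger2, which was higher with defactinib (1.45% of all genes called). The response to defactinib differed between the genotypes in 4 genes by the interaction term of the same fit: Ptgs2, Ptger2 and Ptger4 were more positive in IRF5 KO and Ltc4s less (22.8% of all genes called, and the same 4 members where 31.6% were called without replicate 3). The response to LPS differed between the genotypes in 0 of the 10 past both thresholds, with 2 at an unadjusted p below 0.05 (32.9% of all genes), where 9.83% of all genes were called. DESeq2 and limma-voom called 0 as well. Without replicate 3 the interaction of genotype with LPS was called for Ptger4 (23.6% of all genes called). At the false discovery rate alone, whatever the fold, the interaction with defactinib passed in 5 of the 10 (37% of all genes) and that with LPS in 1 of the 10 (17.1% of all genes), and without replicate 3 in 5 (54% of all genes) and 4 of the 10 (46.7% of all genes), the 4 being Ptgs1, Ptger4, Pla2g4a and Alox5ap. Both comparisons in WT use the WT LPS DMSO libraries, so that the LPS and the defactinib values of a gene are not independent.

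**Figure D2:**
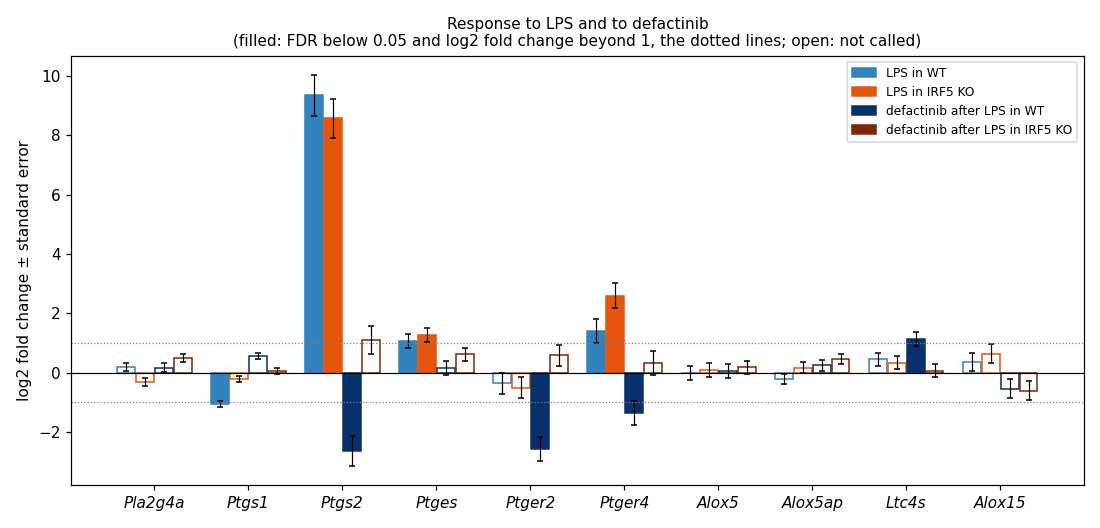
Log2 fold change ± standard error (vertical axis) of each gene after LPS with DMSO against unstimulated, and after defactinib and LPS against DMSO and LPS, in WT and IRF5 KO (3 libraries per group). Filled bars are called and open bars are not: Ptgs2 fell by 2.65 with defactinib in WT, and no bar for defactinib in IRF5 KO is filled.

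Between the genotypes, IRF5 KO unstimulated cells were called higher in 1 of the 10 genes, Ptgs1 (7.31% of all genes called). After LPS with DMSO Ptgs1 and Ptger4 were higher in IRF5 KO (25.8% of all genes called), and without replicate 3 Alox5 as well (34.5% called). After LPS with defactinib 5 of the 10 were higher in IRF5 KO, namely Ptgs1, Ptgs2, Ptger2, Ptger4 and Alox5 (17.3% of all genes called). No member was called lower in IRF5 KO in these 3 comparisons.

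**Figure D3:**
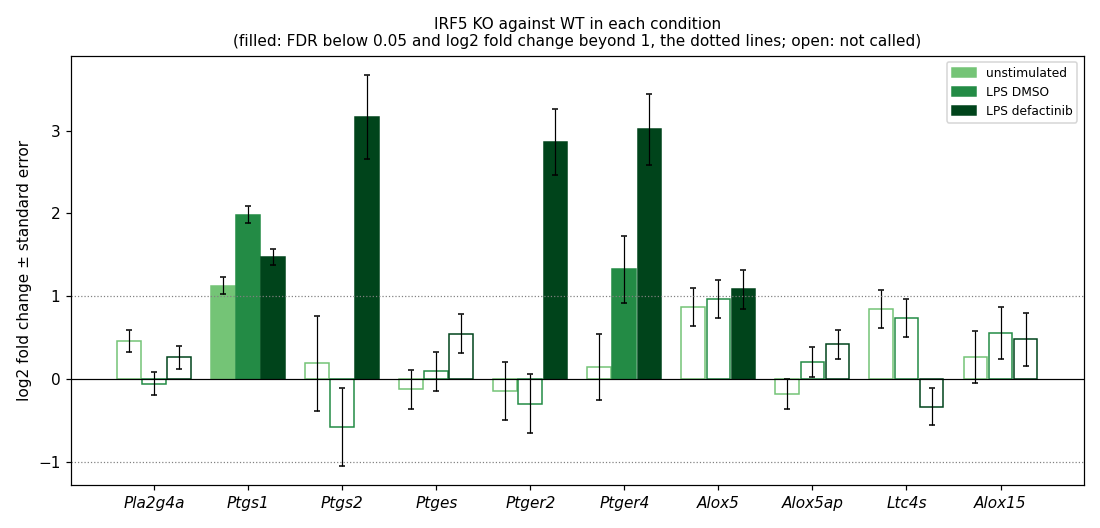
Log2 fold change ± standard error (vertical axis) of IRF5 KO against WT for each gene, unstimulated, after LPS with DMSO and after LPS with defactinib (3 libraries per group). Filled bars are called and open bars are not: Ptgs1 is filled in all 3 conditions, at 1.13, 1.98 and 1.47, and Ptgs2 after defactinib alone, at 3.17.

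Pla2g4a (ENSMUSG00000056220, chr1:149829618-149961290, - strand) codes for the phospholipase that starts both branches, and was among the steadiest of the 10. It was at 23.5, 23.2 and 23.3 CPM in WT unstimulated cells, at 27.5, 24.8 and 27.8 CPM after LPS with DMSO and at 27.6, 24.6 and 38.0 CPM after LPS with defactinib, in the order of replicates 1 to 3 here and in all lists of 3 values. In IRF5 KO the values were 34.4, 27.6 and 34.2 CPM unstimulated, 25.0, 24.3 and 27.7 CPM with LPS and DMSO and 37.4, 33.8 and 36.9 CPM with LPS and defactinib. Its group means covered 0.62 on the log2 scale, and its ranges overlapped between neighbouring groups in 4 of 5 steps of their order. No comparison moved Pla2g4a by a log2 fold change of 1, with or without IRF5 KO LPS DMSO replicate 3. Unstimulated IRF5 KO cells were above unstimulated WT cells in every library, with a log2 fold change of 0.46 ± 0.14 (SE, adjusted p = 0.0318), which passes the false discovery rate and not the fold threshold.

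Ptgs2 (ENSMUSG00000032487, chr1:150100031-150108227, + strand), the gene of the inducible COX-2, moved most. WT unstimulated libraries held 0.992, 0.964 and 1.09 CPM, WT LPS DMSO libraries 752, 683 and 557 CPM and WT LPS defactinib libraries 78.8, 22.7 and 216 CPM. IRF5 KO libraries held 1.14, 1.14 and 1.20 CPM unstimulated, 411, 422 and 498 CPM with LPS and DMSO and 965, 912 and 971 CPM with LPS and defactinib. No 2 groups that were neighbours in level overlapped, and the order from the highest was IRF5 KO LPS defactinib, WT LPS DMSO, IRF5 KO LPS DMSO, WT LPS defactinib and the 2 unstimulated groups. LPS raised Ptgs2 by a log2 fold change of 9.35 ± 0.69 (SE, adjusted p = 9.17e-08) in WT and of 8.58 ± 0.66 (SE, adjusted p = 1.03e-06) in IRF5 KO, or 8.49 ± 0.77 (SE, adjusted p = 1.45e-06) without replicate 3 and 8.76 (adjusted p = 8.74e-05) with replicate 3 alone. The response to LPS was not shown to differ between the genotypes, with an interaction of -0.77 ± 0.74 (SE, adjusted p = 0.486), or -0.86 ± 0.96 (SE, adjusted p = 0.496) without replicate 3. After LPS with DMSO the genotypes differed by -0.58 ± 0.47 (SE, adjusted p = 0.309), or -0.67 ± 0.59 (SE, adjusted p = 0.338) without replicate 3, although the 3 IRF5 KO libraries were all below the 3 WT libraries.

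With defactinib, Ptgs2 in WT fell by 2.65 ± 0.50 on the log2 scale (SE, adjusted p = 0.000397). All 3 WT LPS defactinib libraries were below all 3 WT LPS DMSO libraries and far above the unstimulated ones, and they spread more than any other group of this gene, with the lowest in replicate 2 and the highest in replicate 3. In IRF5 KO the defactinib libraries were instead all above the DMSO libraries, at a log2 difference of 1.10 ± 0.47 (SE, adjusted p = 0.178) that did not pass the threshold. It was 1.19 ± 0.61 (SE, adjusted p = 0.268) without replicate 3. It passed when either replicate 2 (1.08, adjusted p = 0.0289) or replicate 3 (1.08, adjusted p = 0.0407) of WT LPS defactinib was left out of the shared fit, or when the 2 groups were fitted alone (1.08, adjusted p = 0.0494). Over all alternatives this adjusted p ranged from 0.0289 to 0.402. The interaction of genotype with defactinib was 3.75 ± 0.68 (SE, adjusted p = 0.000615) for Ptgs2, and 3.84 ± 0.83 (SE, adjusted p = 0.002) without replicate 3. In cells with LPS and defactinib, Ptgs2 was higher in IRF5 KO than in WT by 3.17 ± 0.51 (SE, adjusted p = 0.000185). These 3 differences depended on single libraries of WT LPS defactinib. Without replicate 3 the change in WT was -3.71, the interaction 4.79 and the genotype difference 4.22, and without replicate 2 they were -2.16, 3.24 and 2.67. The call of each held with any 1 library left out.

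Ptgs1 (ENSMUSG00000047250, chr2:36230426-36252272, + strand) codes for COX-1, the cyclooxygenase of resting cells. In WT it was at 170.1, 163 and 189 CPM unstimulated, 82.9, 77.1 and 90.1 CPM with LPS and DMSO and 126, 117 and 126 CPM with LPS and defactinib. The WT groups did not overlap, and the defactinib libraries lay between the other 2 groups. LPS lowered Ptgs1 in WT by 1.06 ± 0.098 on the log2 scale (SE, adjusted p = 5.63e-07), and defactinib libraries were above DMSO libraries by 0.56 ± 0.10 (SE, adjusted p = 0.000184), which is under the fold threshold. In IRF5 KO it was at 389, 360.1 and 394 CPM unstimulated, 355, 353 and 281 CPM with LPS and DMSO and 339, 347 and 339 CPM with LPS and defactinib. Every IRF5 KO library was thus above every WT library. The log2 difference between the genotypes was 1.13 ± 0.10 (SE, adjusted p = 1.15e-06) unstimulated, 1.98 ± 0.10 (SE, adjusted p = 3.94e-09) with LPS and DMSO (2.09 ± 0.083 SE, adjusted p = 3.07e-12 without replicate 3) and 1.47 ± 0.10 (SE, adjusted p = 2.26e-08) with LPS and defactinib. In IRF5 KO the change with LPS was -0.21 ± 0.10 (SE, adjusted p = 0.0995), or -0.11 ± 0.084 (SE, adjusted p = 0.293) without replicate 3, and that with defactinib was 0.051 ± 0.10 (SE, adjusted p = 0.789), or -0.051 ± 0.083 (SE, adjusted p = 0.758) without it, and none passed the thresholds. The response to LPS was less negative in IRF5 KO than in WT by 0.86 ± 0.14 (SE, adjusted p = 0.001), or 0.96 ± 0.11 (SE, adjusted p = 2.52e-06) without replicate 3, and the response to defactinib differed by -0.51 ± 0.14 (SE, adjusted p = 0.00842), or -0.61 ± 0.11 (SE, adjusted p = 0.000191) without it. Both interactions stay under the fold threshold, and with replicate 3 alone that with LPS was 0.65 (adjusted p = 0.00378) and that with defactinib -0.31 (adjusted p = 0.0824), which no longer passes the false discovery rate.

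Summed levels of markers of other cell types also differed between the genotypes, in both directions. The summed level of 11 neutrophil markers was 264 to 277 CPM in WT unstimulated and 1163 to 1798 CPM in IRF5 KO unstimulated cells, 338 to 434 and 1266 to 1868 CPM after LPS with DMSO, and 355 to 494 and 2712 to 2869 CPM after LPS with defactinib. Most of it came from Mmp8 and Mmp9, and 4 of the 11 were called higher in unstimulated IRF5 KO cells, 5 with LPS and DMSO and 2 with LPS and defactinib, with 0 lower in each. Among the other neutrophil markers Ly6g (at most 1.09 CPM), Elane (at most 0.437 CPM) and Retnlg (at most 0.460 CPM) were near 0 in all libraries. The rest were not: S100a8 was at 23.6 to 88.2 CPM, S100a9 at 18.5 to 81.1, Ngp at 8.39 to 40.7 and Ltf at 6.09 to 22.1 CPM. Camp was at 1.10 to 4.11 and Cxcr2 at 0.194 to 9.62 CPM. The 12 markers of mast cells and basophils, cells known for leukotriene C4 synthesis, summed to 10.8 to 11.7 CPM in WT unstimulated cells. In IRF5 KO unstimulated cells they summed to 49.4 to 57.5 CPM, and Kit and Gata2 gave most of both sums. After LPS with DMSO they summed to 45.5 to 58.2 CPM in WT and 50.2 to 102 CPM in IRF5 KO, which overlap. Most of this sum in WT came from Hdc, at 31.9 to 42.5 CPM against 0.389 to 0.655 CPM unstimulated. In IRF5 KO Hdc was at 6.64 to 28.9 CPM after LPS with DMSO and 1.73 to 2.23 CPM unstimulated. After LPS with defactinib, where Ltc4s rose in WT, the 12 markers summed to 10.01 to 34.8 CPM in WT and 51.0 to 55.5 CPM in IRF5 KO. Of these sums Hdc held 1.95 to 25.5 and 7.37 to 7.89 CPM. The mast cell protease genes Mcpt4 and Tpsab1 had no count in any library, and of the 6 mast cell and basophil markers tested 2 were called higher in IRF5 KO unstimulated, 2 with LPS and DMSO and 1 with LPS and defactinib, with 0 lower in each. The summed level of the 6 markers of eosinophils, another source of leukotriene C4, was lower in IRF5 KO, at 68.9 to 76.4 in WT against 45.5 to 61.4 CPM unstimulated, 110.1 to 137 against 68.1 to 81.4 CPM after LPS with DMSO and 71.7 to 95.6 against 46.4 to 48.2 CPM after LPS with defactinib. Of these 6 genes 1 was called higher in IRF5 KO and 0 lower unstimulated, 0 higher and 1 lower with LPS and DMSO, and 1 higher and 1 lower with defactinib. Of the 3 platelet markers tested 1 was called higher in IRF5 KO and 0 lower in each of the 3 conditions. The summed level of 5 platelet markers was higher in IRF5 KO with defactinib (1262 to 1356 against 374 to 936 CPM) and overlapped between the genotypes unstimulated and after LPS with DMSO. That of 8 dendritic cell markers was lower in IRF5 KO unstimulated (1938 to 2044 against 2374 to 2546 CPM, 0 of the 6 tested called) and after LPS with DMSO (2071 to 2681 against 2822 to 2942 CPM, 1 called lower), and overlapped with defactinib, where 2 were called higher and 1 lower. With LPS and defactinib the summed macrophage markers were also higher in IRF5 KO (18205 to 19152 against 10801 to 15126 CPM), with 2 of 8 called higher. Within WT, LPS called 6 of 11 neutrophil markers higher and 1 lower, 4 of 6 eosinophil, 2 of 6 mast cell, 2 of 6 dendritic cell and 2 of 8 macrophage markers higher, and defactinib called 3 of 6 eosinophil, 2 of 6 mast cell and 2 of 6 dendritic cell markers lower and 1 macrophage marker higher and 2 lower. The part of these genes in the values of the 10 was not tested.

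The ratio of Ptgs2 to Ptgs1 in RPKM shows how the balance of the 2 cyclooxygenase transcripts shifted. It was 0.00495 ± 6.48e-05 (SD, n = 3) in WT unstimulated and 0.00258 ± 9.55e-05 in IRF5 KO unstimulated cells. After LPS with DMSO it was 7.70, 7.51 and 5.25 in WT and 0.981, 1.01 and 1.504 in IRF5 KO, where 1.504 is replicate 3. By RPKM, Ptgs2 thus exceeded Ptgs1 in all 3 WT libraries, and was near it in replicates 1 and 2 of IRF5 KO. With defactinib and LPS the order turned: the ratio was 0.531, 0.165 and 1.45 in WT and 2.41, 2.23 and 2.43 in IRF5 KO, and the 2 groups did not overlap. No test was run on this ratio, which rests on the 2 genes tested above.

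**Figure D4:**
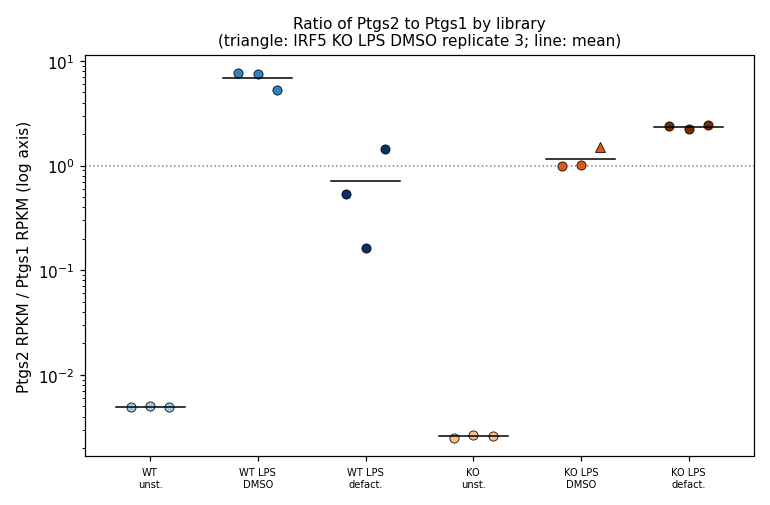
Ratio of Ptgs2 to Ptgs1 in RPKM (vertical log axis, dotted line at 1) in each of the 18 libraries, with a line at the group mean and a triangle for IRF5 KO LPS DMSO replicate 3. The mean is 6.82 in WT LPS DMSO, 0.715 in WT LPS defactinib, 1.17 in IRF5 KO LPS DMSO and 2.36 in IRF5 KO LPS defactinib.

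Ptges (ENSMUSG00000050737, chr2:30889471-30929863, - strand) codes for the microsomal, inducible prostaglandin E synthase that works beside COX-2. It was at 3.74, 4.99 and 6.27 CPM in WT unstimulated cells, 12.7, 8.65 and 10.01 CPM with LPS and DMSO and 9.26, 8.88 and 16.8 CPM with LPS and defactinib. IRF5 KO libraries held 4.91, 3.81 and 5.03 CPM unstimulated, 11.6, 11.7 and 10.02 CPM with LPS and DMSO and 16.7, 17.5 and 16.8 CPM with LPS and defactinib. In both genotypes all LPS libraries were above all unstimulated ones. The log2 fold change with LPS was 1.06 ± 0.24 (SE, adjusted p = 0.0019) in WT, where it falls under the fold threshold when replicate 1 of WT unstimulated (0.89, adjusted p = 0.0139) or of WT LPS DMSO (0.90, adjusted p = 0.0128) is left out. Its adjusted p ranged from 4.85e-05 to 0.0167 over all alternatives. In IRF5 KO it was 1.28 ± 0.24 (SE, adjusted p = 0.00204), and 1.35 ± 0.25 (SE, adjusted p = 0.000216) without replicate 3. With defactinib in WT it did not pass the test (0.16 ± 0.23 SE, adjusted p = 0.582), and replicate 3, the WT defactinib library with the most Ptgs2, also held the most Ptges. In IRF5 KO the difference with defactinib was 0.61 ± 0.23 (SE, adjusted p = 0.134), or 0.54 ± 0.25 (SE, adjusted p = 0.206) without replicate 3. Ptges did not pass the thresholds between the genotypes in any condition, with or without that replicate.

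The receptor gene Ptger4 (ENSMUSG00000039942, chr15:5206661-5244187, - strand) codes for EP4. In WT it was at 41.6, 44.6 and 44.8 CPM unstimulated, 104, 119 and 124 CPM with LPS and DMSO and 63.0, 27.9 and 43.2 CPM with LPS and defactinib, so that the defactinib libraries overlapped the unstimulated ones. In WT it rose with LPS by 1.41 ± 0.41 (SE, adjusted p = 0.0112) and fell with defactinib by 1.37 ± 0.41 (SE, adjusted p = 0.00972) on the log2 scale. In IRF5 KO it was at 44.9, 52.1 and 48.0 CPM unstimulated, 397, 393 and 81.8 CPM with LPS and DMSO and 358, 378 and 351 CPM with LPS and defactinib. Replicates 1 and 2 of IRF5 KO LPS DMSO were at the level of IRF5 KO LPS defactinib, and replicate 3 was below every WT LPS DMSO library. The rise with LPS in IRF5 KO was 2.59 ± 0.42 (SE, adjusted p = 0.00103), or 3.03 ± 0.21 (SE, adjusted p = 8.14e-09) without replicate 3 and 0.77 (adjusted p = 0.104) with replicate 3 alone.

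The other values of Ptger4 that use this group also differed with and without replicate 3. IRF5 KO exceeded WT after LPS with DMSO by 1.33 ± 0.40 (SE, adjusted p = 0.013), or 1.77 ± 0.20 (SE, adjusted p = 1.73e-06) without replicate 3, and was below WT at -0.48 (adjusted p = 0.184) with replicate 3 alone. The call is also lost with limma-voom (1.01, adjusted p = 0.0594), without replicate 1 (1.05, adjusted p = 0.0595) or without replicate 2 (1.06, adjusted p = 0.0584), and the adjusted p ranged from 1.73e-06 to 0.184 over all alternatives. Defactinib against DMSO in IRF5 KO gave 0.32 ± 0.40 (SE, adjusted p = 0.666), or -0.12 ± 0.21 (SE, adjusted p = 0.764) without replicate 3 and 2.13 (adjusted p = 4.54e-05) with replicate 3 alone. The interaction with LPS was 1.18 ± 0.56 (SE, adjusted p = 0.16) and 1.62 ± 0.28 (SE, adjusted p = 0.000196) without it, and turned to -0.63 (adjusted p = 0.256) with replicate 3 alone. The interaction with defactinib was 1.69 ± 0.57 (SE, adjusted p = 0.0292), or 1.25 ± 0.28 (SE, adjusted p = 0.00145) without replicate 3 and 3.50 (adjusted p = 3.24e-06) with replicate 3 alone. The call of this interaction over all libraries is lost with no filter on low counts (1.72, adjusted p = 0.0644), without replicate 2 (1.64, adjusted p = 0.052) or 3 (1.62, adjusted p = 0.0545) of WT LPS DMSO, without replicate 2 (1.43, adjusted p = 0.0726) or 3 (1.65, adjusted p = 0.0513) of WT LPS defactinib, and without replicate 2 of IRF5 KO LPS defactinib (1.64, adjusted p = 0.0524). Its adjusted p ranged from 3.24e-06 to 0.0726 over all alternatives. The comparison that does not use this group, with LPS and defactinib in both genotypes, put Ptger4 higher in IRF5 KO by 3.02 ± 0.43 (SE, adjusted p = 6.42e-05).

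Ptger2 (ENSMUSG00000037759, chr14:44988195-45003820, + strand), the gene of EP2 and the least abundant of the 10 by RPKM, was read from few counts, which limits the precision. It was at 5.65, 4.63 and 5.01 CPM in WT unstimulated cells, 4.48, 2.99 and 4.47 CPM with LPS and DMSO and 0.791, 0.289 and 0.925 CPM with LPS and defactinib. All 3 WT defactinib libraries were below every other library of the series, and the fall against DMSO was 2.57 ± 0.40 on the log2 scale (SE, adjusted p = 6.92e-05). IRF5 KO libraries held 4.67, 3.85 and 5.29 CPM unstimulated, 1.65, 2.78 and 5.24 CPM with LPS and DMSO and 4.51, 5.11 and 5.02 CPM with LPS and defactinib. Replicates 1 and 2 of IRF5 KO LPS DMSO were the lowest outside WT LPS defactinib, while replicate 3 was at the unstimulated level. In IRF5 KO the change with LPS was -0.51 ± 0.36 (SE, adjusted p = 0.267), or -1.06 ± 0.30 (SE, adjusted p = 0.00532) without replicate 3. It turned to 0.20 with replicate 3 alone. Defactinib gave 0.59 ± 0.36 (SE, adjusted p = 0.332), or 1.14 ± 0.30 (SE, adjusted p = 0.0274) without replicate 3, and turned to -0.12 with replicate 3 alone. The response to defactinib differed between the genotypes by 3.16 ± 0.53 (SE, adjusted p = 0.000293), or 3.72 ± 0.42 (SE, adjusted p = 1.16e-06) without replicate 3 and 2.44 (adjusted p = 0.000489) with replicate 3 alone, and with LPS and defactinib IRF5 KO was higher by 2.87 ± 0.40 (SE, adjusted p = 4.39e-05). After LPS with DMSO the genotypes differed by -0.30 ± 0.36 (SE, adjusted p = 0.502), or -0.85 ± 0.30 (SE, adjusted p = 0.019) without replicate 3, under the fold threshold both ways. With replicate 3 alone this difference turned to 0.42.

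In the leukotriene branch, Alox5 (ENSMUSG00000025701, chr6:116410077-116461178, - strand), the gene of 5-lipoxygenase, was higher in IRF5 KO libraries in each condition. WT libraries held 50.7, 51.2 and 51.6 CPM unstimulated, 45.8, 50.8 and 55.5 CPM with LPS and DMSO and 55.8, 74.9 and 27.7 CPM with LPS and defactinib. IRF5 KO libraries held 96.4, 87.7 and 96.0 CPM unstimulated, 109, 107 and 81.3 CPM with LPS and DMSO and 113, 115 and 108 CPM with LPS and defactinib. Every IRF5 KO library was above every WT library. The log2 difference was 0.87 ± 0.23 (SE, adjusted p = 0.0178) unstimulated, 0.97 ± 0.23 (SE, adjusted p = 0.00293) with LPS and DMSO (1.09 ± 0.25 SE, adjusted p = 0.00124 without replicate 3) and 1.08 ± 0.23 (SE, adjusted p = 0.00187) with LPS and defactinib. With replicate 3 alone as the IRF5 KO LPS DMSO group the difference with LPS and DMSO was 0.70 (adjusted p = 0.117). Over the 3 IRF5 KO libraries it passes the fold threshold without WT LPS DMSO replicate 3 (1.05, adjusted p = 0.0075). The difference with defactinib falls to 0.75 (adjusted p = 0.000911) without WT LPS defactinib replicate 3, the lowest of the 18 libraries. In each condition the summed neutrophil markers were also higher in IRF5 KO and the summed eosinophil markers lower. The summed mast cell markers were higher in IRF5 KO unstimulated and with defactinib, and their ranges overlapped after LPS with DMSO, where 2 of the 6 tested were called higher. Alox5 did not pass the thresholds with LPS or with defactinib in either genotype, with or without IRF5 KO LPS DMSO replicate 3.

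Alox5ap (ENSMUSG00000060063, chr5:149264767-149288153, + strand) codes for FLAP, which presents arachidonic acid to 5-lipoxygenase. It was at 214, 218 and 218 CPM in WT unstimulated cells, 175, 182 and 202 CPM with LPS and DMSO and 226, 283 and 156 CPM with LPS and defactinib. In IRF5 KO it was at 207, 169 and 197 CPM unstimulated, at 242, 244 and 159 CPM with LPS and DMSO and at 299, 295 and 295 CPM with LPS and defactinib. It was not called in any comparison, with or without IRF5 KO LPS DMSO replicate 3. The IRF5 KO LPS defactinib libraries were above all others, by 0.42 ± 0.18 (SE, adjusted p = 0.0807) against WT with defactinib. Against IRF5 KO LPS DMSO the difference was 0.46 ± 0.18 (SE, adjusted p = 0.139), or 0.29 ± 0.16 (SE, adjusted p = 0.302) without replicate 3. It was 0.88 with replicate 3 alone standing for that group.

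Ltc4s (ENSMUSG00000020377, chr11:50236469-50238616, - strand) codes for leukotriene C4 synthase, the enzyme that joins glutathione to leukotriene A4. It was at 7.13, 7.70 and 7.07 CPM in WT unstimulated cells, 11.2, 9.47 and 9.25 CPM with LPS and DMSO and 18.1, 30.2 and 17.2 CPM with LPS and defactinib. All 3 WT defactinib libraries were above all other WT libraries, with replicate 2 the highest of the 18. It rose with defactinib in WT by 1.13 ± 0.23 (SE, adjusted p = 0.000618), which falls to 0.83 (adjusted p = 0.00376) without that replicate. IRF5 KO libraries held 13.8, 10.9 and 14.7 CPM unstimulated, 19.1, 19.7 and 11.1 CPM with LPS and DMSO and 16.3, 19.4 and 16.2 CPM with LPS and defactinib. Defactinib against DMSO in IRF5 KO was 0.061 ± 0.22 (SE, adjusted p = 0.9), or -0.16 ± 0.19 (SE, adjusted p = 0.653) without replicate 3. With replicate 3 alone it was 0.63. The response was smaller than in WT, at an interaction of -1.07 ± 0.32 (SE, adjusted p = 0.0151), or -1.29 ± 0.26 (SE, adjusted p = 0.000421) without replicate 3 and -0.52 (adjusted p = 0.24) with replicate 3 alone. That call is also lost without replicate 1 (-0.998, adjusted p = 0.0348) or replicate 2 (-0.97, adjusted p = 0.0366) of IRF5 KO LPS DMSO and without replicate 2 of WT LPS defactinib (-0.78, adjusted p = 0.0391), each of which stays under the false discovery rate and not beyond the fold threshold. Its adjusted p ranged from 0.000421 to 0.24 over all alternatives. In unstimulated cells Ltc4s was higher in IRF5 KO than in WT by 0.85 ± 0.23 (SE, adjusted p = 0.0178), under the fold threshold, and no library of the 2 groups overlapped. After LPS with DMSO IRF5 KO was above WT by 0.74 ± 0.23 (SE, adjusted p = 0.0131), or 0.96 ± 0.19 (SE, adjusted p = 0.000306) without replicate 3 and 0.17 (adjusted p = 0.671) with replicate 3 alone, also under the fold threshold.

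Alox15 (ENSMUSG00000018924, chr11:70344152-70352031, - strand) codes for the lipoxygenase that makes other oxidised fatty acids, and was low throughout. WT libraries held 3.20, 2.20 and 2.47 CPM unstimulated, 2.13, 4.22 and 3.76 CPM with LPS and DMSO and 2.49, 3.34 and 1.10 CPM with LPS and defactinib. IRF5 KO libraries held 2.70, 3.68 and 3.13 CPM unstimulated, 5.72, 4.82 and 4.31 CPM with LPS and DMSO and 3.12, 3.07 and 3.53 CPM with LPS and defactinib. Alox15 was not called in any comparison, with or without IRF5 KO LPS DMSO replicate 3. The largest of its differences was 0.64 ± 0.31 (SE, adjusted p = 0.114) for LPS in IRF5 KO, or 0.74 ± 0.32 (SE, adjusted p = 0.0583) without it.

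Other genes of the pathway were taken from 6 lists of 56 genes, all matched, of which 38 passed the filter. Their median log2 fold change was -0.049 with LPS in WT and 0.24 with defactinib in WT, beside -0.0045 and 0.086 over all tested genes. In WT, LPS called 4 of the 38, where 21.3% of all tested genes were called: Pla2g15, a lysosomal phospholipase, fell from 68.8, 68.9 and 57.7 to 13.8, 17.8 and 13.8 CPM, and Cysltr1, a receptor of cysteinyl leukotrienes, fell by 1.11 ± 0.17 on the log2 scale (SE, adjusted p = 6.03e-05), from 36.2 ± 2.28 to 16.8 ± 1.90 CPM (SD, n = 3). Pla2g4f and Alox12 rose to 1.70 ± 0.327 and 0.626 ± 0.203 CPM. In IRF5 KO, LPS called 2 (13.3% of all genes): Pla2g4f rose to 1.76 ± 0.453 CPM and Cysltr2 fell, from 0.827 ± 0.137 to 0.395 ± 0.201 CPM. Without replicate 3 of IRF5 KO LPS DMSO, 6 of 39 were called (26.2% of all genes), the other 4 being Pla2g4c, which rose, and Pla2g15, Cysltr1 and Ptgir, which fell.

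Defactinib in WT called 6 of the 38, 2 up and 4 down, where 29.1% of all tested genes were called. Ptgir, the gene of the prostacyclin receptor, which like EP2 and EP4 raises cAMP, fell by 3.79 ± 0.85 on the log2 scale (SE, adjusted p = 0.00153), from 156, 138 and 179 to 9.67, 11.7 and 12.9 CPM. In IRF5 KO Ptgir was at 6.28, 4.24 and 109 CPM with LPS and DMSO and at 8.73, 9.90 and 9.19 CPM with LPS and defactinib, so that replicates 1 and 2 of the DMSO group again lay with the defactinib group and replicate 3 did not. Ptges3, the cytosolic prostaglandin E synthase and HSP90 partner p23, fell in WT by 1.51 ± 0.23 (SE, adjusted p = 6.12e-05), from 112, 104 and 108 to 38.7, 38.9 and 36.1 CPM, and in IRF5 KO was at 42.4, 41.5 and 96.6 CPM with DMSO and 47.2, 44.4 and 53.8 CPM with defactinib. Cysltr2 also fell, from 1.61 ± 0.278 to 0.296 ± 0.146 CPM. Hpgds, the hematopoietic prostaglandin D synthase, fell from 4.21 ± 2.14 to 1.62 ± 1.36 CPM, with libraries of the 2 groups overlapping. Pla2g15 rose by 1.47 ± 0.20 (SE, adjusted p = 1.94e-05) to 29.9, 46.2 and 49.6 CPM. Ptger3 rose from 0.0833 ± 0.0599 to 0.343 ± 0.288 CPM, read from few counts and with overlapping libraries. In IRF5 KO defactinib called 0 of the 38 (0.919% of all genes) by edgeR's quasi-likelihood test, with 11 at an unadjusted p below 0.05 (23.3% of all genes), and 0 by DESeq2, by limma-voom and without replicate 3 of IRF5 KO LPS DMSO.

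Between the genotypes, 4 of the 38 were called in unstimulated cells (7.31% of all genes). Mgst2, which also has leukotriene C4 synthase activity, was higher in IRF5 KO (14.4, 8.85 and 13.5 against 5.36, 5.45 and 6.23 CPM in WT), and Mgst3 of the same family was lower (10.3, 7.68 and 9.60 against 21.6, 19.01 and 18.4 CPM). Ptgis, the prostacyclin synthase gene, was lower at 0.371 ± 0.0817 against 1.74 ± 0.144 CPM, and Pla2g4c was higher at 0.272 ± 0.131 against 0.0181 ± 0.0188 CPM, both with few counts. With LPS and defactinib 4 were called (17.3% of all genes), of which Mgst2 (1.23 ± 0.21 SE, adjusted p = 0.000274) and Slco2a1 were higher in IRF5 KO and Ptgis (-2.02 ± 0.36 SE, adjusted p = 0.000395) and Alox12 lower. With LPS and DMSO 4 were higher and 4 lower in IRF5 KO (25.8% of all genes called), or 5 and 5 of 39 without replicate 3 (34.5%). The 6 of smallest adjusted p were Mgst2 (11.97 ± 2.08 against 5.05 ± 1.36 CPM in WT), Slco2a1 and Pla2g4c, which were higher, and Cysltr2 (0.395 ± 0.201 against 1.61 ± 0.278 CPM), Alox12 and Ptgis, which were lower.

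The interaction with LPS was called for 2 of the 38 (9.83% of all genes), Pla2g15 (1.18 ± 0.28 SE, adjusted p = 0.00939) and Cysltr2 (-1.80 ± 0.48 SE, adjusted p = 0.0185). Without replicate 3 of IRF5 KO LPS DMSO it was called for 3 of 39 (23.6% of all genes), namely Cysltr2 (-2.32 ± 0.45 SE, adjusted p = 0.000442), Ptges3 (-1.50 ± 0.12 SE, adjusted p = 2.19e-08) and Ptgir (-3.88 ± 0.20 SE, adjusted p = 3e-10), while Pla2g15 stood under the fold threshold (0.92 ± 0.22 SE, adjusted p = 0.0027). The interaction with defactinib was called for 4 of the 38 (22.8% of all genes), Pla2g15 (-1.47 ± 0.28 SE, adjusted p = 0.000716), Ptges3 (1.20 ± 0.32 SE, adjusted p = 0.00836), Cysltr2 (1.81 ± 0.53 SE, adjusted p = 0.0135) and Pla2g4c, which was read from few counts. Without replicate 3 these were joined by Ptgir (4.602 ± 0.21 SE, adjusted p = 1.72e-11), and Pla2g15 was at -1.20 ± 0.22 SE, adjusted p = 0.000224, Ptges3 at 1.72 ± 0.12 SE, adjusted p = 2.07e-09 and Cysltr2 at 2.33 ± 0.50 SE, adjusted p = 0.000868 (31.6% of all genes called). With LPS and DMSO, Ptgir was lower in IRF5 KO by a log2 fold change of -1.98 ± 0.78 SE (adjusted p = 0.0442) with all libraries and -4.90 ± 0.18 SE (adjusted p = 1.84e-12) without replicate 3. Ptgir with and without that replicate was chosen for the text after its values were seen.

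As a description, the genes whose log2 CPM over the 18 libraries was most like that of the 3 most variable members were listed, with all points sharing the same groups. For Ptgs2 they were the chemokine receptor gene Ccrl2 (Pearson's r of 0.985), the chemokine gene Cxcl1 (0.982) and the cytokine gene Il23a (0.981). For Ptger4 they were Elavl1 (0.988), Ythdc1 (0.986) and Traf6 (0.982), and for Ptger2 they were Bag5 (0.968), Ppil4 (0.966) and Ammecr1l (0.964). In their lowest library the 3 genes most like Ptgs2 were at 5.19 CPM or less, whereas those most like Ptger4 were at 39.5 CPM or more in all 18.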

How the data were processed

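RNA-seq counts of 18 libraries of WT and IRF5 KO BMDMs were used, with groups taken from the labels. The table the authors deposited holds raw counts of read pairs per Ensembl gene and the gene length in bases, without normalization. Per the file headers and the study's methods, STAR placed the reads on mm10, and pairs with a unique position were counted over exons with featureCounts 1.6.3, reverse stranded. Ptgs1, Ptger2, Ptger4, Alox5ap and Ltc4s overlap exons of genes on the other strand. Filters and mapping steps are contained in the counts. The members, the other pathway genes and the marker lists were chosen with earlier results of these data known.

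CPM used TMM library sizes, and RPKM also the deposited gene lengths. All 18 libraries entered 1 robust model in edgeR 4.0.16 under R 4.3.3 (TMM, filterByExpr, a mean for each group, replicate numbers ignored), and contrasts were tested two-sided by quasi-likelihood, with p-values adjusted after Benjamini and Hochberg over 15663 genes, a false discovery rate of 0.05 and a log2 fold change beyond 1 (2-fold). The standard error is the log2 fold change divided by the square root of F. The code was tested on simulated data. Alternatives were other scalings and filters, DESeq2 1.42.0, limma-voom 3.58.1, a replicate block, the groups compared alone, no fold threshold, each library left out, and IRF5 KO LPS DMSO as replicate 3 alone. Of the other pathway genes all those called were named, up to 6 per comparison by smallest adjusted p, as were the 3 genes most like each of the 3 most variable members. Replicate numbers were not taken as pairs.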

Additional observations from a re-analysis of the deposited data

Results flagged for a closer look

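The response of 5 of the 10 genes to defactinib or LPS differed between the genotypes by the interaction term in edgeR at a false discovery rate below 0.05, counted as the IRF5 KO response minus the WT response and whatever the fold. With defactinib 5 of the 10 passed, where 37% of all tested genes did, and with LPS 1 of the 10, where 17.1% did. Without replicate 3 of IRF5 KO LPS DMSO 5 and 4 of the 10 passed, where 54% and 46.7% of all genes did. For defactinib the log2 difference was 3.75 for Ptgs2, 3.16 for Ptger2, 1.69 for Ptger4, -1.07 for Ltc4s and -0.51 for Ptgs1. The same term for LPS was 0.86 for Ptgs1. These terms use the IRF5 KO LPS DMSO group, in which Ptger4 was at 397, 393 and 81.8 CPM and Ptger2 at 1.65, 2.78 and 5.24 CPM. The part of replicate 3 in them was measured by leaving it out, which gave 3.84 for Ptgs2, 3.72 for Ptger2, 1.25 for Ptger4, -1.29 for Ltc4s and -0.61 for Ptgs1 with defactinib, and 0.96 for Ptgs1 with LPS. With replicate 3 alone standing for the group the terms with defactinib were 3.55 for Ptgs2, 2.44 for Ptger2, 3.50 for Ptger4, -0.52 for Ltc4s and -0.31 for Ptgs1, of which the last 2 no longer passed (adjusted p = 0.24 and 0.0824), and that with LPS was 0.65 for Ptgs1.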

How the results depend on the processing

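Alox15 did not pass a filter of 5 CPM in 3 libraries and has no value under it. Over 90 combinations of gene and comparison, 838 of 891 values under 10 alternatives and 1580 of 1620 with 1 library left out kept their direction and their side of the thresholds, 10 and 14 lost a call, 13 and 7 gained one, and 29 and 19 that were not called changed sign. One called value reversed: Ptger4 in IRF5 KO against WT after LPS with DMSO was -0.48 with replicate 3 alone standing for the IRF5 KO group. The cause of these changes was not tested. Fitted with the compared groups alone, Ptger4 lost its calls with LPS in IRF5 KO (2.64, adjusted p = 0.0862), between the genotypes after LPS with DMSO (1.36, adjusted p = 0.0997) and in the interaction with defactinib (1.70, adjusted p = 0.0687).

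Counts of called members moved as follows. LPS called 3 to 4 in WT and 2 to 4 in IRF5 KO over all alternatives, defactinib in WT 3 to 5, and IRF5 KO against WT with defactinib 4 to 5. IRF5 KO against WT after LPS with DMSO called 1 with limma-voom, 4 with no fold threshold and 1 with replicate 3 alone, and 1 to 3 with 1 library left out. Defactinib in IRF5 KO called 1 with the 2 groups fitted alone and 1 with replicate 3 alone, and 0 to 1 with 1 library left out. The genotypes differed in 4 unstimulated without the fold threshold. The interaction with LPS called 1 without it and 0 to 1 with 1 library left out, and that with defactinib 2 to 4, or 5 without the fold threshold.

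Scaling by library size alone moved the median log2 fold change of all genes by -0.38 for LPS in WT, -0.24 for LPS in IRF5 KO, 0.20 for defactinib in WT, -0.13 for defactinib in IRF5 KO, 0.11 and 0.25 between the genotypes unstimulated and after LPS with DMSO, and 0.14 and -0.33 for the interactions with LPS and defactinib. Under it Ptges with LPS in WT (0.69) and Alox5 in IRF5 KO against WT with defactinib (0.996) lost their calls, while Alox5 after LPS with DMSO gained one (1.21), as it did with the filter of 5 CPM and with the 2 groups fitted alone (1.01 in both). With limma-voom the interaction of Ltc4s with defactinib lost its call (-0.96).

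With a replicate block the counts were 4, 3, 4, 0, 1, 2, 5, 0 and 4 in the 9 comparisons, as without it, and it changed no call. Libraries with the same number did not deviate together (median correlation of residuals 0.0046 over 45 pairs, 4 above 0.1). Few counts limit the precision of Ptger2 and Alox15.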
